A study of Mus musculus with 139 samples.

Results

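Bone marrow is the site of adult blood formation. Its small non-coding RNA was compared here with that of 9 other organs: brain, heart, muscle, lung, liver, kidney, pancreas, intestine and spleen. The members were the columns of the deposited table whose names begin with the bone marrow label, 12 libraries out of 134. Set against them were 118 libraries, namely 14 each of brain, muscle, kidney and spleen, 13 each of heart, lung and liver, 12 of intestine and 11 of pancreas. The library labelled Pancreas 11 and the 3 testis columns did not enter. All mice were C57BL/6J, an inbred laboratory strain, wild type, untreated and 3 months old. The column names give animals 1 to 10 as female and animals 11 to 14 as male, and replicate numbers are animals. Marrow libraries exist for animals 1 to 9, 11, 13 and 14. The titles name the tissue bone marrow while the tissue field says bone, and no source used here says how it was taken from the skeleton. The tissue was stored in RNAlater, miRNeasy columns gave the total RNA, and TruSeq small RNA libraries were cut from a gel by size.

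A microRNA (miRNA) is a short RNA cut from a hairpin precursor. Loaded into an Argonaute protein, it pairs with messenger RNAs mainly through its seed, the bases 2 to 8, and lowers their output. Marrow holds stem and progenitor cells together with the neutrophil, monocyte, red cell, megakaryocyte and lymphocyte lineages, and several miRNAs are known as lineage markers. Mir223 marks neutrophils and monocytes, Mir142 marks most cells of blood origin, Mir144 and Mir451a are made from a joint precursor under GATA1 in red cell precursors, and Mir150 marks mature lymphocytes. The Mir17-92 cluster and its paralogues are induced by MYC and E2F factors in dividing cells. In a bulk tissue, fewer cells of a type and less RNA per cell cannot be told apart, and all levels are relative within a library.

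The mature sequences of the miRNAs on which the results turn are shown 5′ to 3′ as RefSeq gives them on GRCm38.p6, with the seed in capitals. Of 476 miRNA rows tested, 400 matched a RefSeq mature sequence, and counts per gene do not separate the arms of a hairpin. The blood lineage miRNAs, which each have a seed of their own here, are these.
miR-223-3p: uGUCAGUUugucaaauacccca
miR-142a-3p: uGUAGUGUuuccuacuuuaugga
miR-451a: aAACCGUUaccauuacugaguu
miR-144-3p: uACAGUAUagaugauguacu

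The Mir17-92 family is shown because its members fall into few seeds spread over 3 clusters on different chromosomes.
miR-17-5p: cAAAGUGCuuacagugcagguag
miR-20a-5p: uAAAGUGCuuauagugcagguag
miR-106a-5p: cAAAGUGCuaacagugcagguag
miR-93-5p: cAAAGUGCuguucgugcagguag
miR-106b-5p: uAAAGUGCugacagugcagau
miR-18a-5p: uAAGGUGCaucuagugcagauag
miR-18b-5p: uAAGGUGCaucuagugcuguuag
miR-92a-3p: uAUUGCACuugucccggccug
miR-363-3p: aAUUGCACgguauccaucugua
miR-25-3p: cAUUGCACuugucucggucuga

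The next are shown for differences in other groups: a miRNA of the Hoxa locus, 1 let-7, and epithelial miRNAs of the Mir200 family, which carry 2 kinds of seed.
miR-196b-5p: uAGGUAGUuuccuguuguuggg
let-7b-5p: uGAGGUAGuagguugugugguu
miR-200b-3p: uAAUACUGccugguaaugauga
miR-429-3p: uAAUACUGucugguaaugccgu
miR-200a-3p: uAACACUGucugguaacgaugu

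Marrow libraries held 1414097 to 16394202 counts with a median of 7554905, and the other organs 13795 to 33186859 with a median of 5851432. Pancreas was the shallowest organ, with a median of 134227. The marrow libraries were of 3 kinds. Libraries 1 to 4 and 5 to 9 belong to the library pool named N469, with index primers RPI 21 to 24 and 44 to 48, and libraries 11, 13 and 14 belong to pool N541, which holds the male mice. Pool N469 also holds the brain, heart, muscle and intestine of animals 1 to 10, and their other organs are in pool N467. Sex, animal set and pool N541 cannot be told apart within an organ.

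These kinds differed in their mix of RNA classes. Small nucleolar RNA (snoRNA), which guides chemical modification of ribosomal RNA, took 49.7%, 38.6% and 37.9% of the counts of Bone marrow 11, 13 and 14, against 2.57 to 7.68% in the 9 libraries of pool N469. MiRNA took 31.5 to 38.3% in the first 3 and 67.5 to 82.5% in the other 9, so the groups did not overlap. The exact 95% binomial intervals of these shares, which cover counting error only, were at most 0.1 percentage points wide (49.69 to 49.74% in Bone marrow 11). Libraries of pool N541 from lung, spleen, pancreas and muscle also had median snoRNA shares of 18.2 to 28.1%, whereas the kidney median was 0.372%. Small nuclear RNA (snRNA), the RNA of the spliceosome, took 0.368 to 0.561% in Bone marrow 5 to 9 and 0.0252 to 0.0771% in the other 7. Some list counts that changed when these libraries were left out, or in pool N541 alone, are given beside the results or in the account of that pool. Others changed too and are not given.

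**Figure D1:**
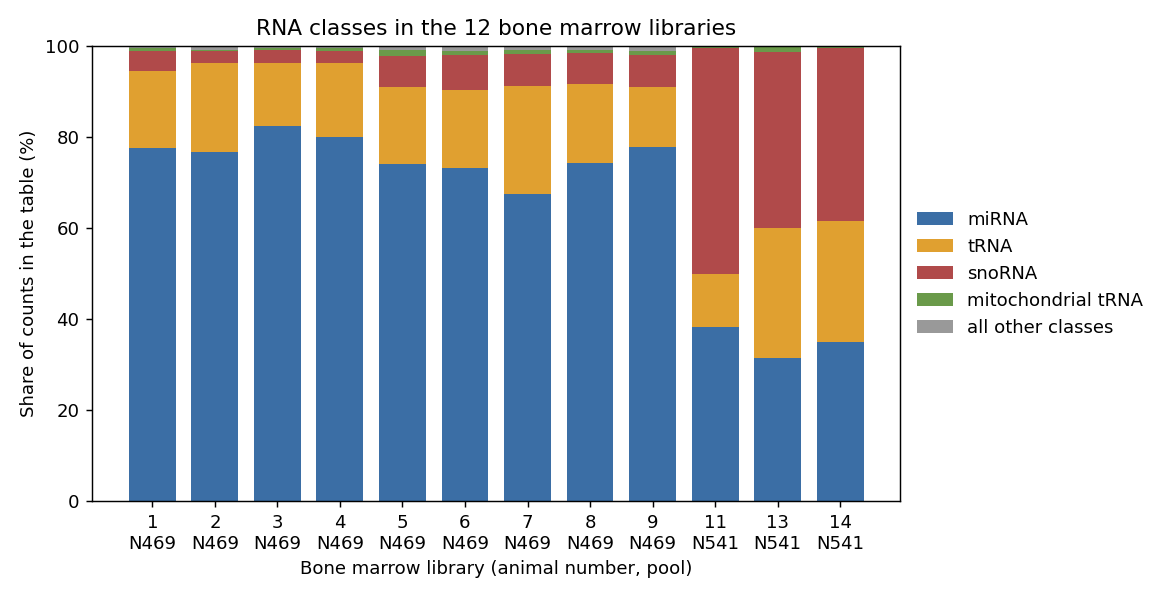
Share of counts (percent, y axis) taken by each RNA class, as stacked bars, in each of the 12 bone marrow libraries (x axis). Bone marrow 11, 13 and 14 held 37.9 to 49.7% snoRNA, all above the 2.57 to 7.68% of Bone marrow 1 to 9.

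Over all 12 libraries, the share of mitochondrial tRNA was lower in marrow, at 0.678 ± 0.335% (SD, n = 12), than the mean of 4.0% over the 118 others (permutation test, two-sided, adjusted p = 0.00021 over 7 classes). Mitochondrial tRNAs decode the messages of the respiratory chain, and heart had the highest mean share, 13.1%. The snRNA share was higher in marrow, by 0.184 percentage points (permutation adjusted p = 0.00021), but without Bone marrow 5 to 9 the difference was -0.00632 (exact rank permutation adjusted p = 0.134). Shares of snoRNA, miRNA, tRNA, scaRNA and miscellaneous RNA did not pass (permutation adjusted p = 0.0706, 0.0774, 0.167, 0.167 and 0.323). When each marrow library was set against the other organs of its own animal, tRNA was higher by 7.63 percentage points, with 11 of the animals positive (exact sign-flip adjusted p = 0.00854), and scaRNA was lower by -0.206 (adjusted p = 0.00684).

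Gene by gene, marrow was compared with the mean of the 9 organs on a log2 scale. A gene was called where the edgeR quasi-likelihood test gave an adjusted p under 0.05 over the 1063 genes tested and the log2 difference was at least 1. By this rule 307 genes (28.9%) were higher in marrow and 237 (22.3%) lower, with a median difference of 0.19 over all tested genes. The reference is a mean of log levels, so a gene can be higher than it while 1 or 2 organs hold more of it. Of 476 miRNA rows 95 were higher and 177 lower, with a median of -0.90, but this balance turned with the scaling. It was 157 higher and 134 lower with DESeq2's size factors (median -0.01), 167 and 122 with unscaled totals (median 0.08), and 160 and 124 when miRNA rows were fitted alone. These scalings moved the median of all genes to 0.94 and 1.09, and the calls to 503 higher and 172 lower with size factors, with 154 lower unscaled. The share of calls that were higher was 56.4% as scaled here, 74.5% with size factors and 77.8% unscaled.

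Mitochondrial tRNAs were lower in marrow almost as a class: 21 of 22 fell and 0 rose, with a median of -2.98, and 19 and 17 fell under the other scalings. Of 219 snoRNA rows, 84 rose and 16 fell, with a median of 0.60. Without Bone marrow 11, 13 and 14 the snoRNA counts were 51 and 20 of 232 and the median was -0.17. Named C/D box snoRNAs, which guide ribose methylation, rose in 22 of 43 cases and in 12 of 43 without these libraries. Of 275 tRNA rows 90 rose and 18 fell, and without the same 3 libraries 62 and 23 of 276. SnRNA rows rose in 20 of 35 cases, and in 17 of 43 without Bone marrow 5 to 9, where the median went from 1.5 to 0.61. Leaving out Bone marrow 11, 13 and 14, 235 of 1088 genes (21.6%) were higher and 248 (22.8%) lower over all classes.

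Mir223 stood furthest above the other organs among miRNAs with a known lineage. The blood lineage miRNAs Mir223, Mir142, Mir144 and Mir451a were found in all 12 libraries. Other organs hold them too, so their presence alone cannot check the tissue label. For Mir223 the level was 923 CPM (counts relative to the library's total after TMM scaling) in the lowest marrow library, 2684 in the median and 3957 in the highest. Spleen held 406 ± 156 (SD, n = 14), lung 110 ± 49.2 (n = 13), heart 73.1 ± 34.8 (n = 13) and brain 9.44 ± 4.96 (n = 14). All 12 marrow libraries were above all 118 others, of which the highest was Spleen 2 at 840. The log2 difference was 5.70 ± 0.25 (SE; edgeR adjusted p = 2.58e-44), and against spleen alone it was 2.67 (adjusted p = 4.91e-09). The 9 libraries of pool N469 held 2310 to 3957 and the 3 of N541 held 923 to 1084, and the difference from the other organs did not pass a test between these sets (-0.91, adjusted p = 0.231). The hairpin lies on chromosome X, at 96242817 to 96242926 of GRCm38 on the plus strand, within the non-coding gene F630028O10Rik.

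Mir142, the general blood cell miRNA, was also higher. Its marrow level ran from 7145 through a median of 8028 to 10468 CPM, against 208 ± 168 in brain and 2184 ± 966 in lung. Spleen held 13653 ± 5035. The log2 difference from the 9 organs was 2.89 ± 0.29 (adjusted p = 1.71e-16) and that from spleen was -0.97 (adjusted p = 0.0867), so marrow overlapped spleen and lay above most other libraries. It lies on chromosome 11, at 87756864 to 87756927, in its own host transcript Mir142hg.

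The myeloid list as a whole was mixed. Of its 7 members, 3 were higher, 3 lower and 1 neither, with a median of 0.84. Mir146b, a regulator of inflammatory signalling, was higher (1.95, adjusted p = 1.58e-05), and its paralogue Mir146 had 0.84 (adjusted p = 0.0709). Mir23a, Mir27a and Mir24-2 form 1 cluster that is expressed in myeloid cells and also in vessels and heart, and all 3 were lower, by -1.12, -1.71 and -2.50. Mir24-2 was at 171 to 568 CPM with a median of 261 in marrow and at 4081 ± 1195 in lung. With size factors or unscaled totals the list stood at 4 higher and 1 lower.

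**Figure D2:**
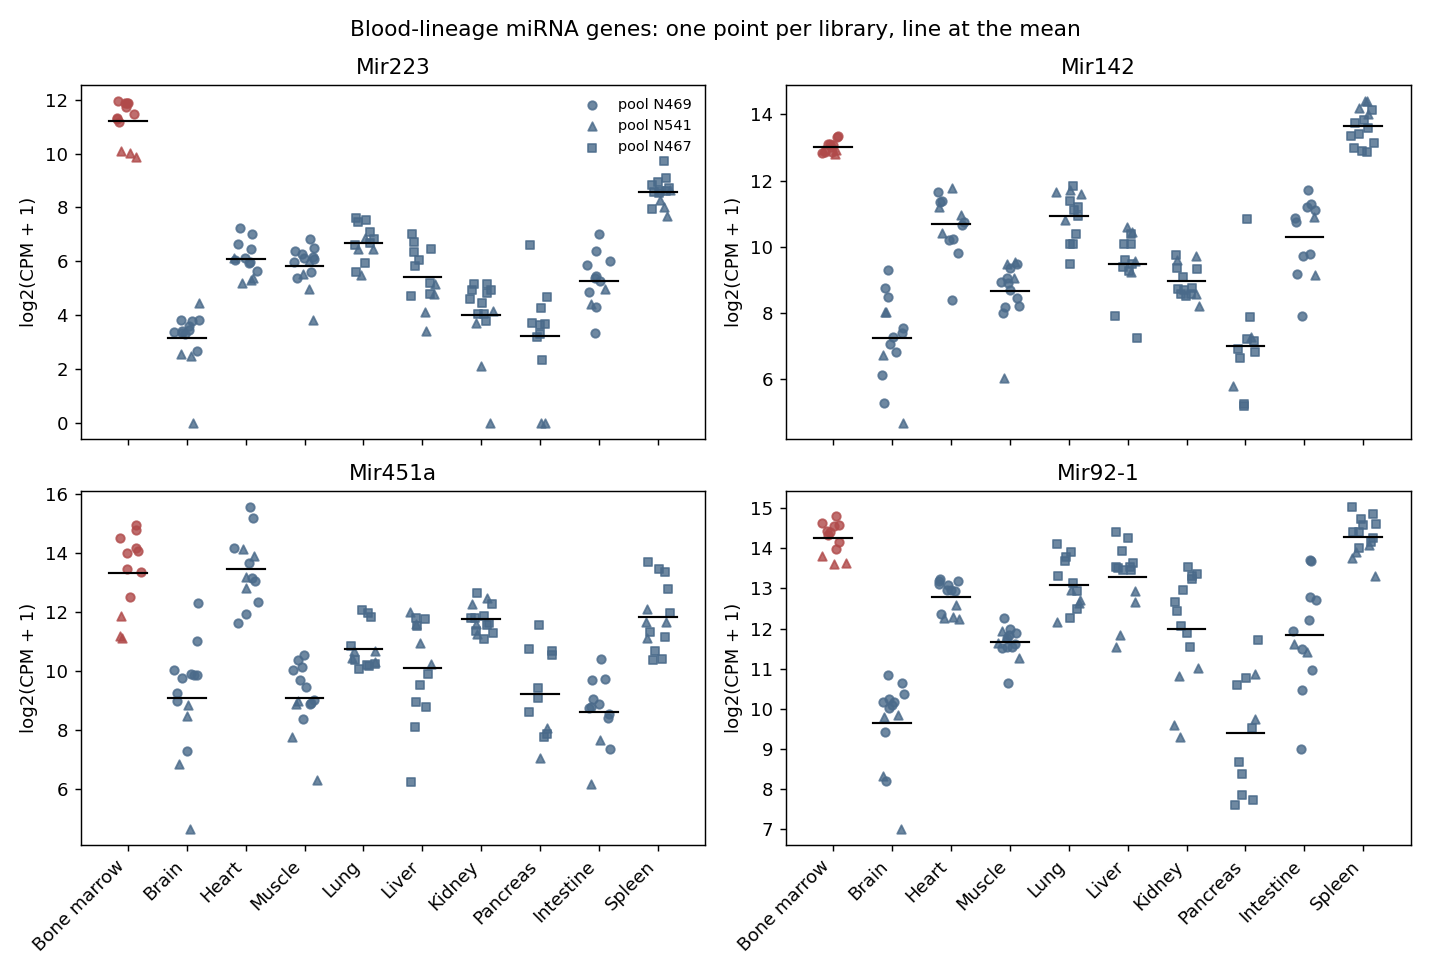
Level per library, as log2(CPM + 1) on the y axis, of Mir223, Mir142, Mir451a and Mir92-1 in bone marrow and the 9 other organs (x axis). Each point is a library, the marker shape gives the pool and the line is the mean of the log2 values. All marrow points for Mir223 lie above all other organs, while for Mir142 and Mir92-1 spleen reaches the marrow range and for Mir451a heart and spleen do.

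All 4 red cell rows were higher in marrow, with a median of 1.91, and all 4 were higher under each scaling. Mir144 and Mir451a share a precursor, and Mir486 and Mir3107 share a locus. Counts of these 4 rows, here and below, are therefore not 4 separate results. Mir451a, which is cut by Argonaute-2 without Dicer, was at 2255 CPM in the lowest, 13874 in the median and 31854 in the highest marrow library. Heart was at 15222 ± 13496 (SD, n = 13), spleen at 4918 ± 4033 and intestine at 505 ± 355, so marrow and heart overlapped widely. The difference from the 9 organs was 2.08 ± 0.36 (adjusted p = 2.83e-07) and that from spleen was 0.21 (adjusted p = 0.812). Levels were 5899 to 31854 in pool N469 and 2255 to 3764 in N541. Mir144, its cluster partner, ran from 629 through 1146 to 2359 CPM (2.46 ± 0.32, adjusted p = 4.18e-11), with heart at 1395 ± 964 and intestine at 25.8 ± 17.8.

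Mir486, which lies in the red cell ankyrin gene Ank1 and is also abundant in heart and skeletal muscle, took 9.59 ± 4.40% of marrow counts. Its level was 30406, 40565 and 102280 CPM in the lowest, median and highest marrow library. Heart was at 153470 ± 60844 and muscle at 139400 ± 113570, both above marrow, while intestine was at 1759 ± 1450. The difference was 1.74 ± 0.33 from the 9 organs (adjusted p = 1.77e-06) and 1.58 from spleen (adjusted p = 0.00877). Mir3107 is on the opposite strand of Mir486, at the same locus, and since the strand setting of the counting is not given here, the pair was read as 1 signal. Against single organs the 4 rows were all higher than in brain, lung, liver, pancreas and intestine. Of all 1063 genes, 273 to 365 were higher than in each of these. Against heart 2 rows were lower (293 of all genes), and against muscle 2 were higher and 2 lower (291 and 280 of all genes).

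The Mir17-92 family rose as a group: 12 of 15 members passed and 0 fell, with a median of 1.38, and 14 and 15 passed with size factors and unscaled totals. Fewer passed without Bone marrow 5 to 9, 9 of 15, and in pool N541 alone, 6 of 15 (medians 1.08 and 1.16), with 0 lower in both. Of all genes 29.4% and 35.7% were higher in these settings. Mir92-1 (the miR-92a of the chromosome 14 cluster, 115044427 to 115044506 in Mir17hg) ran from 12592 through 21274 to 28636 CPM. Spleen was at 21031 ± 6476, liver at 11473 ± 5534 and brain at 975 ± 489. The difference was 2.17 ± 0.25 from the 9 organs (adjusted p = 2.62e-13) and 0.16 from spleen (adjusted p = 0.788), whose libraries overlapped with marrow. Mir17 was at 107 to 543 CPM with a median of 356 (1.37, adjusted p = 7.51e-07), and Mir18 at 45.6 to 215 with a median of 131 (2.04).

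The paralogous clusters moved likewise. On chromosome X, Mir106a (2.03), Mir18b (2.81), Mir20b (1.56), Mir92-2 (2.40) and Mir363 (2.11) rose. Mir92-1 and Mir92-2 hold the same mature miR-92a-3p, and Mir19b-1 and Mir19b-2 the same miR-19b-3p. How reads that match both copies were counted is not given, so the family members are not all separate results. In the Mcm7 gene, which encodes a subunit of the replicative helicase, Mir93 (1.28), Mir25 (1.04) and Mir106b (1.06) rose. The last 2 calls were near the threshold: without Bone marrow 5 to 9 the differences were 0.73 and 0.82, without Bone marrow 8 they were 0.96 and 0.998, and neither was called. Without Bone marrow 5 Mir25 had 0.997 and was not called. Mir93 was at 620 CPM in the lowest, 1659 in the median and 2281 in the highest marrow library. The members that did not pass were Mir20a (0.96), Mir19b-1 (0.80) and Mir19b-2 (0.14). By seed, 5 of 6 rows with AAAGUGC were higher, both rows with AAGGUGC were, and among 6 rows with AUUGCAC 4 were higher while Mir32 and Mir92b, which lie outside the clusters, were lower. Of all 476 miRNA rows 95 (20%) were higher.

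Against single organs, the family was higher in 15 of 15 members than in brain (median 3.42) and muscle (2.51), and in 12 than in lung (1.81). Of all 1063 genes, 365 were higher than in brain, 291 than in muscle and 273 than in lung. Against spleen 166 of all genes were higher and 198 lower. Spleen was the exception. There 0 members were higher in marrow and 5 lower, with a median of -0.54, and the 5 were all from the chromosome X cluster: Mir106a (-1.91), Mir18b (-2.25), Mir20b (-2.15), Mir19b-2 (-1.49) and Mir363 (-1.70). The summed level of the list was 15451 to 34582 CPM in marrow, with a median of 28702, and 27924 on average in spleen, of which Mir92-1 is most.

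Lymphoid miRNAs were not a group that stood out in marrow. Of 7, 1 was higher and 6 were neither, with a median of 0.27, although all 7 were higher with size factors or with unscaled totals, where the medians were 1.15 and 1.37. Mir150 was the 1 called, at 239 to 926 CPM with a median of 645 (1.28 ± 0.30, adjusted p = 8.75e-05). Spleen, an organ full of mature B and T cells, held 4976 ± 2639, and marrow was lower than spleen by -3.38 (adjusted p = 1.59e-09). Mir155, induced in activated lymphocytes and macrophages, was at 29.1 to 139 CPM in marrow and 402 ± 150 in spleen, a log2 difference of -3.24 (adjusted p = 9.62e-11). Mir342 was lower than in spleen as well (-2.17, adjusted p = 0.000328). Mir181a-1, which acts in early lymphocyte development, was at 3090 to 6114 CPM in marrow against 2914 ± 2432 in spleen and 25327 ± 18728 in brain, and its difference from the 9 organs was 0.23 (adjusted p = 0.56).

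Stem and progenitor miRNAs were lower in whole marrow than the mean of the 9 organs, but not than each organ. Of 10 tested of 11 listed, 9 fell and 1 rose, with a median of -1.89. With size factors and unscaled totals 6 and 4 fell. From 7 to 10 were lower than in brain, heart, muscle, lung, liver and kidney, as were 222 to 433 of all 1063 genes. Against spleen 4 were lower, against pancreas 3 and against intestine 1, with medians of -0.94, -0.52 and 0.42. Of all genes, 198, 173 and 371 were lower than in spleen, pancreas and intestine. Mir125b-2, which expands stem cells when overexpressed, was at 55.0, 74.1 and 157 CPM in the lowest, median and highest marrow library, while brain held 1589 ± 736 and spleen 154 ± 71.0 (-2.23 ± 0.27, adjusted p = 7.9e-13). Its cluster partners Mir99a (-2.95) and Mirlet7c-1 (-1.89), and Mir99b (-2.83), Mirlet7e (-1.88) and Mir125a (-1.48) of the paralogous cluster, were lower too. Mir126a, known in stem cells and in endothelium, ran from 605 through 1658 to 3721 CPM against 19361 ± 16450 in lung (-1.43 ± 0.33, adjusted p = 9.35e-05). Mir126a is the 1 tested member of the endothelium list and was not called with either other scaling, where it had -0.78 and -0.43.

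The member that rose was Mir196b, which lies at the Hoxa9 locus (chromosome 6, 52230081 to 52230165, minus strand) and is known from progenitors and leukaemias with high HOXA. Marrow ran from 38.2 through 76.4 to 102 CPM, spleen was at 2.90 ± 1.06 and brain at 0.141 ± 0.191. Kidney and muscle held more than marrow, 544 ± 147 and 242 ± 45.4. The fitted difference was 4.64 ± 0.36 from the 9 organs (adjusted p = 6.06e-22) and 4.10 from spleen (adjusted p = 5.91e-10). It was 0 in all liver libraries, so the first value depends on the prior count and is no bound. The 3 rows with the seed AGGUAGU, Mir196b and both copies of Mir196a, were all called higher by this mean of logs, as were 95 of all 476 miRNA rows (20%).

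The Mir15 and Mir16 family, which restrains cyclins, was mixed, with 1 of 8 higher, 2 lower and a median of 0.38, and 5 and 6 higher under the other scalings. Mir15b was higher, at 296 CPM in the lowest library and 526 in the median (1.94 ± 0.30, adjusted p = 1.25e-08). Mir195a (-2.54) and Mir497 (-2.0), which share a cluster, were lower, and Mir16-1 had 0.58 (adjusted p = 0.061).

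Let-7, a family that accumulates as cells differentiate, was lower in 7 of 12 members and higher in 0, with a median of -1.12. The count depends on the scaling, with 4 lower by size factors and 1 by unscaled totals. Mirlet7b fell furthest, at 224, 303 and 383 CPM in the lowest, median and highest marrow library, against 2478 ± 733 in lung and 481 ± 413 in spleen (-2.15 ± 0.25, adjusted p = 1.22e-13). Mirlet7i, with the same seed, had -0.18 (adjusted p = 0.56) and was at 1854 to 3641 CPM. All 12 were lower than in brain and 11 than in lung and in liver, but only 2 than in intestine and 1 than in spleen. Of all 1063 genes, 433 were lower than in brain, 285 than in lung and 222 than in liver. Against intestine and spleen these counts were 371 and 198.

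**Figure D3:**
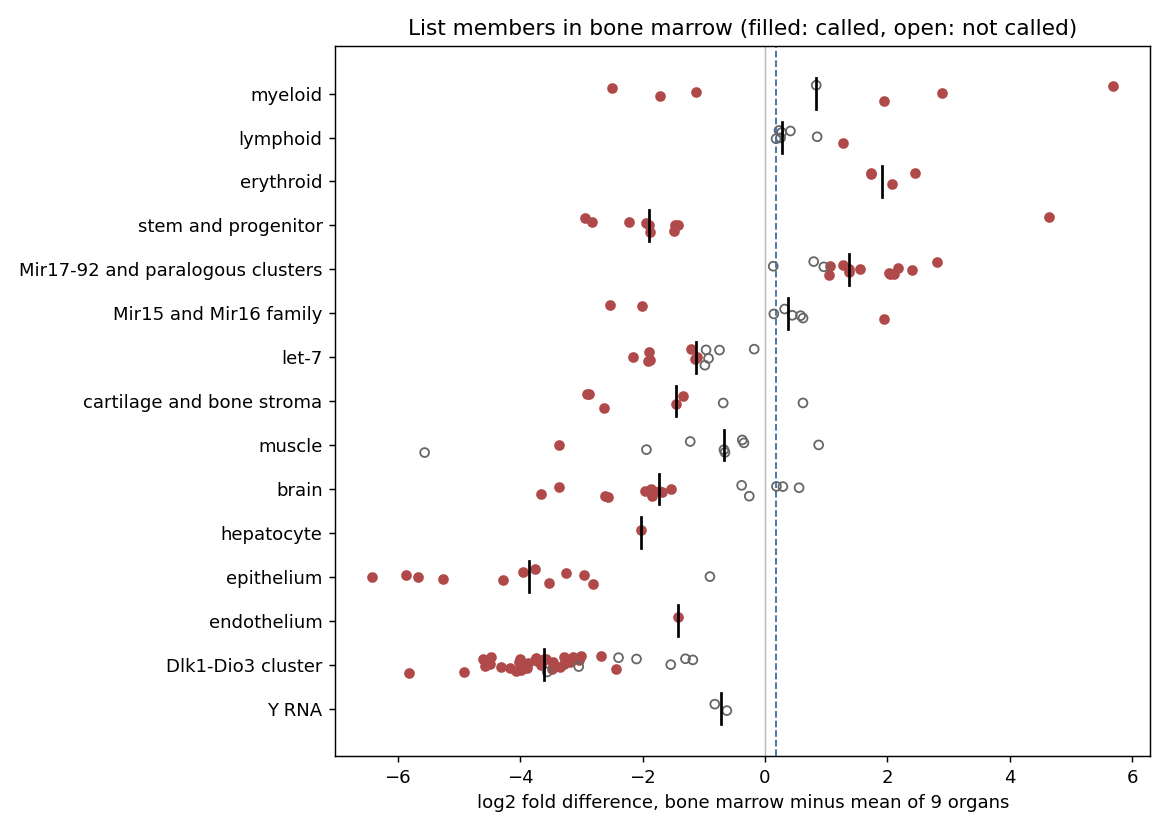
Log2 difference between bone marrow and the mean of 9 organs (x axis) for each tested member of each gene list (y axis). Filled points passed the test and open points did not, the black tick is the list's median and the dashed line is the median of all genes, 0.19. The erythroid and Mir17-92 medians lie at 1.91 and 1.38, and those of the epithelial and Dlk1-Dio3 lists at -3.86 and -3.62.

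Markers of other tissues were set against the same mean of the 9 organs, which includes the organs where the markers are high. A fall below that mean need not hold against each organ. Of 12 epithelial miRNAs 11 fell and 0 rose, with a median of -3.86, and 11 fell under each scaling. Mir200a, which keeps epithelia from turning mesenchymal, was at 1.51 to 4.19 CPM in marrow with a median of 2.29, against 2436 ± 1886 in pancreas, 2284 ± 886 in kidney and 2.13 ± 2.58 in muscle (-6.42 ± 0.65, adjusted p = 2.8e-16). Mir200b (2.5 to 7.90 CPM, -5.67) and Mir429 (0.687 to 2.10 CPM, -5.87) lie in the same cluster. Mir375, made in pancreatic islets and gut, was at 0.056 to 0.524 CPM in 11 marrow libraries and at 8.66 in Bone marrow 14 (-5.27), with pancreas at 23876 ± 10624. Mir192, of liver, kidney and gut, kept a level of 212 to 554 CPM in marrow against 172250 ± 114430 in liver (-3.25). Mir215 was the member that did not pass (-0.90, adjusted p = 0.129).

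Outside that list, the largest falls among genes of at least 50 CPM elsewhere included the sensory and epithelial cluster of Mir183 (-5.75), Mir96 (-5.13) and Mir182 (-5.13). Mir182 was at 16.3 to 81.8 CPM in marrow with a median of 32.1. Its brain mean rests on the library Brain 10, which held 300410. Mir490, which lies in the muscarinic receptor gene Chrm2, was at 0 to 0.673 CPM against 622 in heart (-5.74), and Mir802 was at 0 to 0.394 against 1602 in pancreas (-5.68). Mir34c, known from ciliated epithelium, had -4.86.

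The miRNAs of the imprinted Dlk1-Dio3 region, which are expressed from the maternal chromosome in brain, muscle and embryo, were low in marrow. Of 47 listed 41 were tested, 34 fell and 0 rose, with a median of -3.62, or -3.75 without the 7 members that were 0 in all libraries of some organ. In pool N541 alone 7 of 41 fell, with a median of -1.74, while 13.1% of all genes there were lower. The summed level was 18.1 to 155 CPM in marrow with a median of 27.1. Bone marrow 13 held 155, and the other 11 lay below the lowest mean of an organ, 93.6 in kidney, while brain held 41308. Mir127, the member with the best known target, Rtl1, ran from 4.91 through 11.1 to 55.1 CPM against 21512 ± 9961 in brain (-3.98 ± 0.38, adjusted p = 3.62e-17). It was also lower than in spleen, where it held 52.5 ± 20.2 (-1.40, adjusted p = 0.00419).

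Brain miRNAs fell in 10 of 15 cases and rose in 0, with a median of -1.74, and with size factors 7 fell and 2 rose. In pool N541 alone 1 of 15 fell and the median was 0.69, beside 0.77 over all genes there. Their summed level was 59.8 to 167 CPM in marrow against 40413 in brain. Muscle miRNAs gave 1 lower and 8 neither of 9, with a median of -0.67 that turned to 0.27 with size factors and 0.21 unscaled. With these 2 scalings 1 rose, Mir206 (1.84 and 1.72, edgeR adjusted p = 0.00547 and 0.00761). Mir206 was also called higher with miRNA rows alone (1.45), without a pool term (1.05), with index range as a term (2.54) and without Bone marrow 5 to 9 (1.66). In pool N469 0 of 9 were higher. With the animal as a replicate block 5 of 9 were lower, with a median of -1.21, and without Bone marrow 5 to 9 the median was 0.02. Mir1a-1 was called under the block (-1.21, adjusted p = 0.0344) and without Bone marrow 1 (-1.44, adjusted p = 0.0245), but not with all libraries and no block (-0.67, adjusted p = 0.324). Their summed level in marrow ran from 5.72 CPM in the lowest library through 142 to 1780 in the highest. Mir1a-1, the main miRNA of heart and skeletal muscle, was at 375 CPM in Bone marrow 1, 98.5 in 2, 29 in 3 and 54.1 in 4. It was at 10 in Bone marrow 5, from 0.289 to 0.785 in 6 to 9, and at 30.3, 9.73 and 221 in 11, 13 and 14. Muscle held 95170 ± 75341. Relative to spleen (7.66 ± 4.55) it was higher in marrow (3.16, adjusted p = 0.000667). So were 6 of the 9 muscle rows, beside 166 of all 1063 genes. Against liver 6 muscle rows were higher and 0 lower, beside 335 and 222 of all genes. Against kidney 5 were higher and 2 lower, beside 302 and 269. Against heart and against muscle 0 were higher and 9 lower, and against each remaining organ 0 or 1 were higher. The heart miRNA Mir208a was 0 in all 12 marrow libraries. In pool N469, Mir1a-1 was lower in libraries with RPI 25 to 48 than with RPI 1 to 24 over all 5 organs (-4.44, adjusted p = 3.08e-13), and the part of this in the marrow values was not tested.

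The list for cartilage and bone stroma was lower in 5 of 7 members, higher in 0 and had a median of -1.45. With either other scaling 1 rose and 3 fell. Mir143, a miRNA of smooth muscle and fibroblasts, was at 2894 to 5673 CPM with a median of 4240 against 90408 ± 46811 in intestine (-2.87). Mir145a, its partner, had -2.91 and Mir199b had -2.63. Mir140, which is made in cartilage, had 0.62. The hepatocyte miRNA Mir122 was at 0 in the lowest and the median marrow library and at 58.8 in Bone marrow 14, against 41367 in liver. The 2 Y RNAs, which bind the Ro protein, had a median of -0.72 with 0 calls, and 0.13 with size factors.

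**Figure D4:**
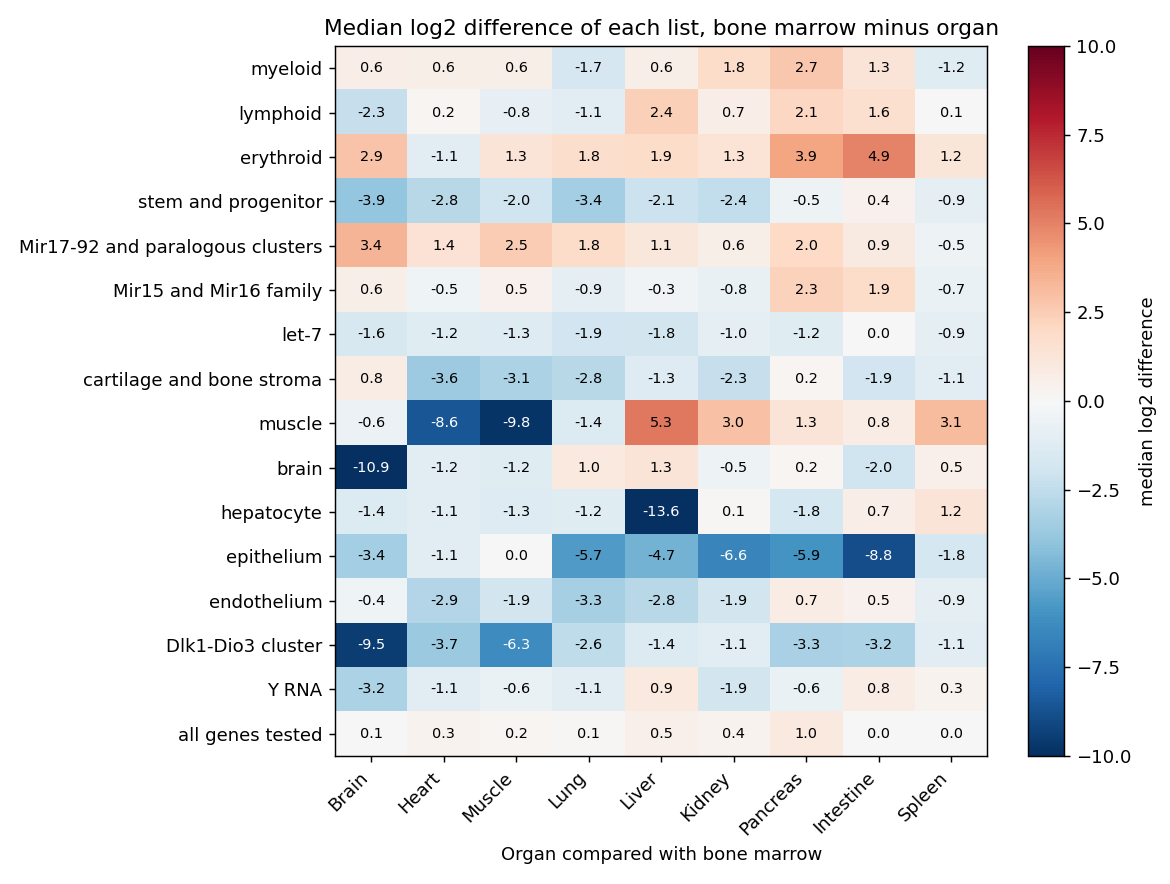
Median log2 difference of each gene list (y axis) between bone marrow and each of the 9 organs (x axis), as a colour from -10 to 10. For Mir17-92 the difference runs from 3.42 against brain to -0.54 against spleen, and for the erythroid list heart has -1.06.

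Spleen, which in mice also makes blood cells, was the organ nearest to marrow. Against it 166 of 1063 genes (15.6%) were higher in marrow and 198 (18.6%) lower, or 34.2% in all, the smallest share of the 9 organs, while brain had the largest at 75.1%. Mitochondrial tRNAs, lower in 21 of 22 cases than the mean of organs, were lower than in spleen in 3 and higher in 1. Myeloid miRNAs were higher in 1 case (Mir223) and lower in 4. The erythroid list had 2 higher and 0 lower, the lymphoid list 0 and 3, the epithelial list 1 and 8 and the Dlk1-Dio3 list 0 and 17. Transfer RNA rows had 66 higher and 4 lower of 275. The spleen libraries of animals 1 to 10 are in another pool than the marrow ones, so this contrast rests on the fitted pool term.

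A stricter rule asked which genes were above each of the 9 organs, with an adjusted p under 0.05 for the largest of 9 one-sided p-values and a smallest difference of at least 1. It called 15 genes (1.41%), of which 8 were miRNA rows and 7 tRNA rows. Mir223 was among them (smallest difference 2.67 from spleen, adjusted p = 8.59e-08). Without Bone marrow 11, 13 and 14 Mir223 was the 1 gene called. In pool N541 alone, where marrow and spleen share a pool, the 1 gene called was Mir6236, and Mir223 was not called (smallest difference 1.61, adjusted p = 0.235). The other 7 miRNA rows were Mir6236, Mir6240 and 5 with Gm names (Gm23388, Gm23935, Gm24187, Gm25911 and Gm47296). Gm23388 and Gm47296 had means of 12.2 and 2.41 CPM and are named only because they belong to this count. Of the tRNA rows, the 1 with over 50 CPM, numbered 1509 in the table, was at 24.9, 72.8 and 162 CPM in the lowest, median and highest marrow library (2.35, adjusted p for each organ 0.0484). That call was lost in most settings, among them both other scalings, DESeq2's Wald test, no filter, and leaving out Bone marrow 4, 5, 6, 7, 8 or 11 alone, with adjusted p from 0.0544 to 1.

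Mir6236 ran from 944 through 2496 to 6061 CPM in marrow. Heart was at 802 ± 821 with its highest library at 2613, pancreas at 557 ± 563 and kidney at 35.6 ± 24.6, so 6 marrow libraries were above all libraries of other organs. The difference was 5.60 ± 0.38 (adjusted p = 3.55e-27). It lies on chromosome 9 at 110281287 to 110281409. Mir6240 (chromosome 5, 114851948 to 114852064) was at 12.8, 45.6 and 157 CPM in the lowest, median and highest library (5.21). Gm23935 was at 173, 567 and 1101 CPM (4.24 ± 0.34) with pancreas at 280.5 ± 208, Gm24187 at 32.7, 130 and 476 (4.63 ± 0.33), and Gm25911 at 29, 102 and 171 (5.11 ± 0.40). Each of these 3 overlapped with the highest libraries of other organs. For Gm23935 the call above each organ was lost under both other scalings, by the Wald test, without spleen, and without Bone marrow 5, 6, 11, 13 or 14 alone (adjusted p from 0.0508 to 1 over all settings in which it was lost). The call of Mir6236 was lost without a pool term (adjusted p = 0.159) and without Bone marrow 11, 13 and 14 (adjusted p = 0.171).

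Their annotated sequences are related, and the shared part is shown because a short read from it fits several rows. A stretch of 26 bases is held by 5 of the genes on the miRNA list that were called higher, Gm23388, Gm23935, Gm24187, Gm24245 and Gm24270, of which Gm23935, Gm24245 and Gm24270 are identical over 57 bases. No base is in capitals, since no part was singled out.
Gm23935 and 4 related rows: cggagagccgttcgtcttgggaaacg
Gm24187 shares 46 bases with Gm23935, and Gm25911 shares 23. None of the 29 tested Gm rows of the miRNA class has a RefSeq mature sequence. Of these, 22 rose and 1 fell, with a median of 2.16, against 72 and 175 of 444 rows with Mir names, whose median was -1.02. Of the 22, 11 share at least 18 bases with a small RNA outside the miRNA class. The search covered annotated small RNA transcripts alone, so matches to any other sequence were not looked for. Within it, no partner outside the miRNA class was found for the 5 related rows, Gm25911, Mir6236 or Mir6240. Whether these rows are true miRNAs was not tested. Gm47287 (3.70) and Gm47305 (3.42) hold 70 bases of Rn7s1, a signal recognition particle RNA. How reads matching several rows were counted is stated in no source used here.

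The comparison was repeated in pool N469 alone, with the 9 female marrow libraries against 39 of brain, heart, muscle and intestine. It shares all its libraries with the first, so its values are given side by side and not as independent support. Of 990 genes, 236 (23.8%) were higher and 303 (30.6%) lower, with a median of -0.35, or 0.83 with unscaled totals. Mir223 had 6.38, Mir142 3.71, Mir451a 3.53, Mir144 3.88 and Mir92-1 2.77. The Mir17-92 family was higher in 15 of 15 members, with a median of 2.47. The erythroid list was higher in 4 of 4 and the myeloid list had 4 higher and 2 lower. The stem and progenitor list had 1 higher and 7 lower.

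Among the lower groups in pool N469, all 12 epithelial and all 15 brain miRNAs fell, 8 of 9 muscle miRNAs did and 40 of 41 of the Dlk1-Dio3 region did, with a median of -6.24. With unscaled totals 9 epithelial and 13 brain miRNAs fell. Let-7 had 4 lower and a median of -0.79, which turned to 0.38 with 1 higher and 0 lower when totals were unscaled. Mir126a had -0.82 and was not called, and 0.29 unscaled. Mitochondrial tRNAs fell in 22 of 22 cases. SnoRNA rows had 55 higher and 20 lower of 198, with a median of 0.12, and tRNA rows 66 and 36 of 273, with a median of -0.04. With unscaled totals these became 103 and 10 (median 1.25) and 146 and 13, where the tRNA median turned to 1.15. As a share of counts, snoRNA was higher in marrow by 3.51 percentage points in this pool (exact rank permutation adjusted p = 2.33e-05) and mitochondrial tRNA was lower by -6.22 (adjusted p = 1.51e-05).

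Within pool N469 the index primers split the libraries once more. Libraries with RPI 25 to 48 differed from those with RPI 1 to 24 across the 5 organs, with 151 of 990 genes (15.3%) lower and 143 (14.4%) higher in the second range. Of miRNA rows 105 were lower and 14 higher, and of tRNA rows 9 and 96. The ranges also follow animals, except that animal 5 has its marrow in the second range and its other organs in the first.

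Mir146, which damps Toll-like receptor signalling, was among the genes that differed most, beside Mir146b and Mir1a-1. Marrow held 5839 to 10631 CPM in libraries 1 to 4, 478 to 728 in libraries 5 to 9 and 5985 to 6467 in 11, 13 and 14. Heart went from 3607 to 5909 CPM in the first range to 281 to 321 in the second, and brain, muscle and intestine were lower in the second too (log2 difference -3.49 ± 0.25, adjusted p = 2.85e-16). Mir146b behaved likewise, with 8835 to 11954 against 745 to 1465 CPM in marrow (-3.33 ± 0.20, adjusted p = 1.37e-19), and Mir486 had -1.57 (adjusted p = 7.43e-08). Mir223 (0.02, adjusted p = 0.927), Mir451a (0.23, adjusted p = 0.513) and Mir17 (-0.11) did not differ beyond their spread. The low end of the marrow range of Mir146 holds the 5 libraries of the second range and no other. Mir10a, a Hox cluster miRNA with 1 of the highest marrow counts, was also lower in the second range (-1.94, adjusted p = 3.34e-07). It ran from 19179 through 25847 to 71344 CPM over the 12 marrow libraries against 569710 ± 155550 in kidney, and was not called against the 9 organs (-0.89, adjusted p = 0.037).

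Marrow against the 4 organs was therefore also fitted inside each range, with 4 and 5 marrow libraries and no library in common. With RPI 1 to 24, 251 of 1008 genes (24.9%) were higher and 272 (27%) lower. With RPI 25 to 48, 231 of 1031 (22.4%) were higher and 298 (28.9%) lower. Higher in both were 162, which is 162 of 251 and of 231, and lower in both 234, which is 234 of 272 and of 298. Mir223 had 6.44 and 6.23, Mir142 3.55 and 3.91, and Mir486 1.34 and 1.43. Mir146 was higher in marrow within each, by 1.83 (adjusted p = 7.39e-05) and 1.06 (adjusted p = 0.00751), and Mir146b by 2.15 and 1.86. The erythroid list was higher in 4 of 4 in both, Mir17-92 in 14 and 15 of 15, and the Dlk1-Dio3 list was lower in 40 of 41 and 41 of 42.

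The male set of pool N541 differed from N469 in how far marrow stood from the 4 organs. Of 940 genes, the marrow difference was larger in N541 for 170 (18.1%) and smaller for 21 (2.23%), by the edgeR test of the difference between sets. For snoRNA rows this was 56 larger and 2 smaller of 173, with a median of 2.02, for tRNA rows 46 and 0 of 268, and for miRNA rows 49 and 19 of 416, with a median of -0.05. Snord49a, a C/D box snoRNA in the host gene 2410006H16Rik on chromosome 11 (62603450 to 62603521), was at 350 to 589 CPM in Bone marrow 1 to 9 and at 187720 to 243430 in 11, 13 and 14. Much of this rise was shared by other organs of pool N541: muscle went from at most 187 CPM in N469 to as much as 103070, and heart from at most 308 to as much as 18775. The marrow difference was 1.74 in N469 and 4.33 in N541. Snord43, in the ribosomal protein gene Rpl3, went from 1977 to 6424 CPM to 99282 to 152760. The snoRNA Gm24463 went from 131 to 242 CPM to 31281 to 54058, and Mir5121, in Rpl13a, from 4.83 to 10.1 to 407 to 517. All but Snord43 are among the 6 genes with the widest spread over marrow libraries, beside both copies of Mir1a. They were named for that spread, so their gap between the sets is no separate result.

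Pool N541 was also fitted alone, with 3 marrow libraries against the 9 organs of the male mice. There 336 of 940 genes (35.7%) were higher and 123 (13.1%) lower, with a median of 0.77 over all genes. Without Bone marrow 5 to 9, 332 of 1129 (29.4%) were higher and 243 (21.5%) lower. In N541 alone the erythroid list had 4 of 4 higher, the myeloid list 4 higher and 3 lower, the stem and progenitor list 1 and 8, let-7 0 and 9, the epithelial list 0 and 8 of 12, and the muscle list 0 and 0 of 9, with a median of 0.65. Mitochondrial tRNAs had 1 higher and 11 lower of 22.

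Of the blood miRNAs, Mir17 differed between the sets in the other direction. Its marrow difference was 2.14 in N469 and 0.24 in N541 (-1.90, adjusted p = 0.00457). Mir223 was 6.31 and 5.40 in the 2 sets.

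**Figure D5:**
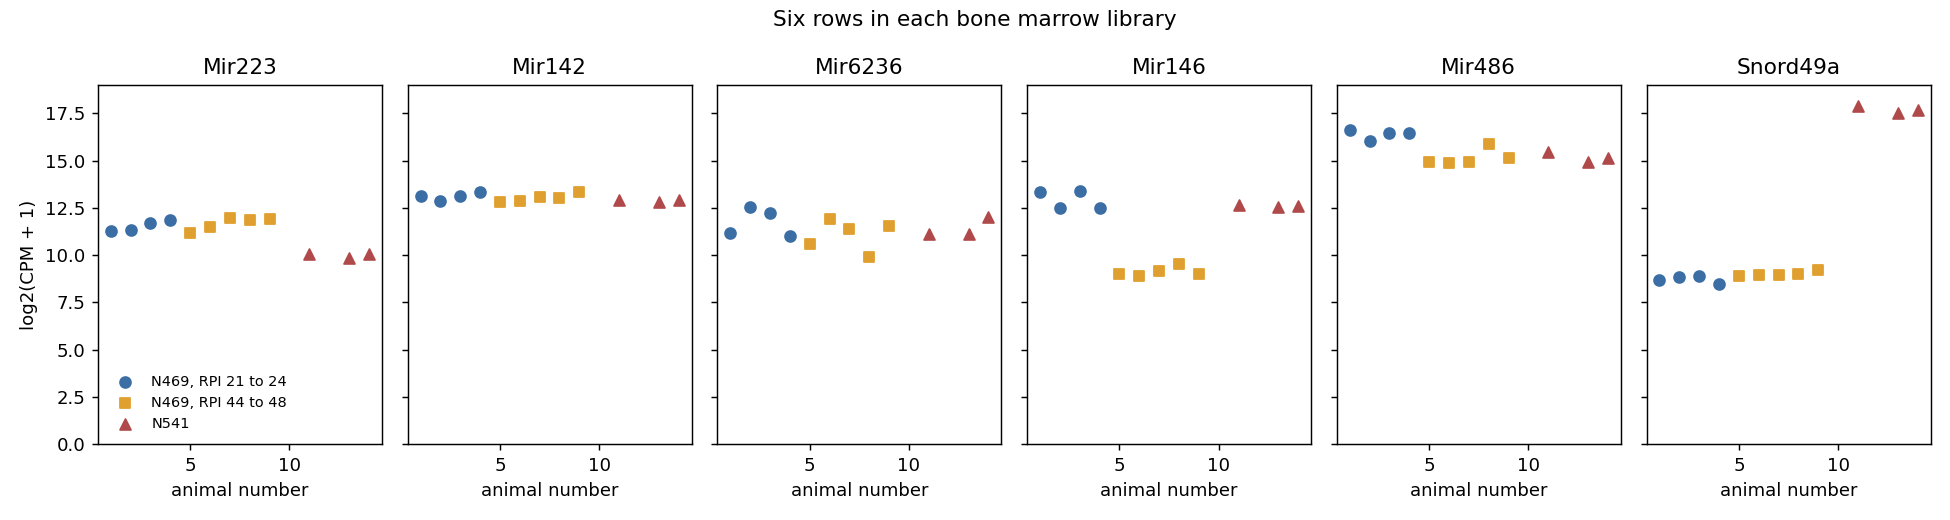
Level, as log2(CPM + 1) on the y axis, of 6 genes in each bone marrow library against animal number (x axis). Circles are pool N469 with RPI 21 to 24, squares N469 with RPI 44 to 48 and triangles N541. Snord49a is at 187720 to 243430 CPM in the 3 triangles alone, and Mir146 is at 478 to 728 in the 5 squares alone.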

How the data were processed

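Per the labels, small RNA libraries were read as single reads on a NextSeq 500, in pools of 48 libraries. The deposited values are raw counts per gene (6114 genes). They came from STAR 2.5.1 and featureCounts on mm10 (GRCm38), per the submitters' processing notes; no source used here states their settings for strand or multiply mapped reads. No column was left unmapped. From these counts, edgeR 4.0.16 (R 4.3.3) was used with TMM scaling, a low-count filter (minimum count 10), a model of organ and pool, quasi-likelihood tests and Benjamini-Hochberg adjustment. CPM is TMM-scaled, errors of differences are SE and those of levels SD over animals. Class shares were tested with 100000 resamples.

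The members and lists were chosen with earlier results of these data known. Named were the 12 highest and 10 lowest called differences among genes of at least 50 CPM, 10 above each organ, the 6 with most marrow counts, the 6 most variable in marrow, and the list members; identical copies are named once. Samples of 1 animal share a weak deviation, a median correlation of 0.0655 over 104 same-animal pairs of libraries against -0.0949 over 387 other pairs. Alternatives were DESeq2 1.42.0, other scalings, no filter, blocks and left-out libraries. The code was tested on simulated data.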

Additional observations from a re-analysis of the deposited data

Results flagged for a closer look

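In 42 checks for a library far from the others of its group, run over the 9 marrow libraries of pool N469, chance alone marks about 1 in 20. Bone marrow 2 stood apart at Gm47287, with 286.5 CPM against 5.94 to 25.1 in the other 8, and at Gm47305, with 316.2 CPM against 6.28 to 29.2. These rows hold 70 bases of Rn7s1 in common, so the pair is not independent.

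Of 35 genes compared between the animal sets, 13 named here had a marrow difference that was larger in pool N541 than in N469 by the edgeR test of that difference. Over all genes tested this held for 170 of 940 (18.1%). The named genes were chosen from these same data, some for their spread over marrow libraries, so their count is no separate result. Gm23935, Gm24187 and Gm24270 also share sequence. On the log2 scale the excess was 3.519 for Mir6236, 2.569 for Mir6240, 4.132 for Gm25911, 2.233 for Gm24187, 3.052 for Gm23935, 2.853 for Gm24270 and 2.388 for Gm47305. It was 3.889 for Mir375, where Bone marrow 14 alone held 8.66 CPM and the others at most 0.524. For 4 snoRNA genes and Mir5121 it was 2.590 for Snord49a, 2.724 for Snord43, 3.343 for Gm24463, 2.403 for Snord55 and 3.545 for Mir5121. For Mir6236 the marrow difference was 3.83 in N469 and 7.35 in N541, although its marrow levels overlapped between the sets. Sex, animal set and pool cannot be told apart in these differences.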

How the results depend on the processing

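Depth limits the pancreas libraries most, and 7 libraries of other organs held under 100000 counts. Organs at 0 in all libraries made the size of 54 of the 307 higher differences depend on the prior count. DESeq2's size factors rest on the 130 genes with no 0. The 307 genes called higher became 503 with size factors, 5.4e+02 unscaled, 585 with no filter and 160 with miRNA rows alone, and the 237 lower became 154 unscaled, 124 with miRNA rows alone and 123 in pool N541 alone. The 15 above each organ became 31 by DESeq2's Wald test, 28 with size factors, 23 unscaled, 7 with index range as a term, 1 in N541 alone and 1 without Bone marrow 11, 13 and 14; leaving out 1 marrow library gave 6 to 17 (6, 8 and 9 without Bone marrow 11, 13 and 14, 9 and 8 without 5 and 6). Leaving out 1 gave 270 to 316 higher and 238 to 245 lower. In pool N469, 236 higher became 457 unscaled and 134 with miRNA rows alone, and 303 lower became 196 and 159. With the animal as a replicate block, counts were 313, 239 and 17, and 261 and 295 in N469. The mean tRNA share differed by 0.976 points in N469, where the medians were 17.08% in marrow and 5.82% in the 4 organs. The test there compared ranks and not means (exact rank permutation adjusted p = 0.00442). The tRNA difference was 8.14 without Bone marrow 5 to 9 (exact rank permutation adjusted p = 0.00197) and 7.63 under the block (exact sign-flip adjusted p = 0.00854). The snoRNA share differed by 3.51 in N469 (exact rank permutation adjusted p = 2.33e-05). The scaRNA share differed by -0.206 under the block (exact sign-flip adjusted p = 0.00684). The snRNA share differed by -0.00632 without Bone marrow 5 to 9 (exact rank permutation adjusted p = 0.134). The block changed no other class call. In N541 alone Mir9-1 (0.69), Mir9-2 (1.21), Mir9-3 (1.16), Mir138-2 (0.063) and Mir122 (0.46) turned positive. None of them was called there, and the median over all genes in that fit was 0.77. The cause of these changes was not tested.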

Other observations

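Other genes, chosen after their values were seen, were also higher in marrow. Mir130b and Mir301b share a cluster. Mir130b was at 95.3 CPM in the lowest, 168 in the median and 308 in the highest marrow library (2.85, edgeR adjusted p = 1.46e-18), and Mir301b at 5.38, 23 and 35.8 (2.80, adjusted p = 4.65e-14). Mir147, a miRNA of activated macrophages, was at 3.02 to 15.5 CPM with a median of 9.74 (4.07, adjusted p = 1.87e-19). Terc, the RNA template of telomerase, was at 4.81 to 21.2 CPM with a median of 9.15 (3.27, adjusted p = 2.76e-17), and spleen was at 12.2 and liver at 11.1.

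Grouped by seed, and also chosen after the values were seen, all 4 Mir29 rows (AGCACCA), which target collagen messages, were lower in marrow with a median of -2.67. The 5 rows with the Mir30 seed GUAAACA, 4 of Mir30 and Mir384, were lower with a median of -1.94. The 3 rows with AAUACUG had -5.67 and the 11 with the let-7 seed GAGGUAG had -1.14. Of all 476 miRNA rows 177 (37.2%) were lower, or 134 with size factors and 122 unscaled. Only seeds with several rows called in the same direction were looked at, so agreement within a seed is partly selected.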
